A study of Mus musculus with 3 samples.

Results

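The cells described here are endothelial cells of the mouse ventricle that carry much Vwf, the gene of von Willebrand factor. They were selected on measured values. A barcode was first gated as endothelial when the UMIs (unique molecules counted) of Ptprb, Pecam1, Cdh5, Flt1 and Cyyr1 summed to at least 4, and to at least 2 times the sum of the fibroblast, macrophage and mural genes Pdgfra, Dcn, Csf1r, Mrc1 and Abcc9. Barcodes with more than 2 UMIs of the endocardial and lymphatic genes Npr3, Smoc1, Reln, Mmrn1 and Prox1, or more than 1 UMI of the arterial genes Gja5, Sema3g and Hey1, were left out. Of the 4861 gated barcodes that remained, the 452 with at least 3 Vwf UMIs are called Vwf-rich cells, out of 18021 barcodes in all. The other 4409 gated barcodes serve as comparison and are called other endothelial cells.

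Von Willebrand factor is stored with P-selectin (Selp) in Weibel-Palade bodies, the secretory granules of endothelium, and catches platelets once released. Veins and venules are known for carrying more of it than capillaries do, and for Nr2f2, the transcription factor that keeps venous identity. Venules are also where leukocytes leave the blood: they roll on selectins, arrest on Icam1 and Vcam1 and then cross the wall. The transcription factor NF-kB switches on these adhesion genes together with chemokines and with its own inhibitors, and Toll-like receptor 4 with its co-receptor MD2 (gene Ly96) is one of the receptors upstream of it.

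The series concerns a drug search against cardiac fibrosis and names MD2 as a target. Ventricles of C57B6 mice were compared after transverse aortic constriction (TAC), a narrowing of the aorta that loads the left ventricle, in mice given artesunate, an antimalarial of the artemisinin family (TAC+ART), in mice given vehicle (TAC), and after sham surgery with vehicle (Sham). The tissue was kept frozen until processing, 3 hearts were pooled per group, and each group is 1 library of the 10x Genomics platform. The sources used here do not say if cells or nuclei were put into droplets, and each barcode is called a cell. The 3 libraries held 6856, 7413 and 3752 barcodes in TAC+ART, TAC and Sham, with medians of 4524.5, 4811 and 4310 UMIs per barcode. With 1 library per group there is no replicate and no test, so the differences given are differences between these 3 pools. A level is a gene's UMIs per 1000000 UMIs summed over the cells named (CPM), ratios are log2 ratios of such levels with 0.5 counts added to each sum, and bracketed ranges are 95% intervals that cover counting error only.

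There were 156 Vwf-rich cells in TAC+ART, 198 in TAC and 98 in Sham. Their UMIs summed to 811847, 1104672 and 468120 in that order of libraries. Their median depth was 4977 UMIs in TAC+ART, 5379 in TAC and 4591.5 in Sham, and that of other endothelial cells was 3741, 4013 and 3465.5 UMIs, so the Vwf-rich cells were deeper in each library. A threshold on UMIs favours deep cells. The median Vwf count of the selected cells was 5 in TAC+ART, 6 in TAC and 5 in Sham, and the highest was 28, 39 and 24. Just inside the threshold, at 3 Vwf UMIs, lay 39, 42 and 23 cells, and just outside it, at 2 UMIs, lay 78, 100 and 44 cells. No Vwf count separated the cells into distinct groups, as the plot of Vwf UMIs per cell shows. The Vwf level of the selected cells, which the selection itself sets, was 1441 CPM in TAC+ART, 1513 CPM in TAC and 1410 CPM in Sham. Vwf lies on chromosome 6 at 125546774 to 125686679, plus strand (GRCm38, GENCODE M21, as for all gene positions given). Between pairs of libraries 20 to 27 barcode sequences were shared, and none of them marked Vwf-rich cells in both. A sequence of 1 Vwf-rich TAC+ART cell occurred in Sham, and those of 2 Vwf-rich TAC cells each in TAC+ART and in Sham.

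**Figure D1:**
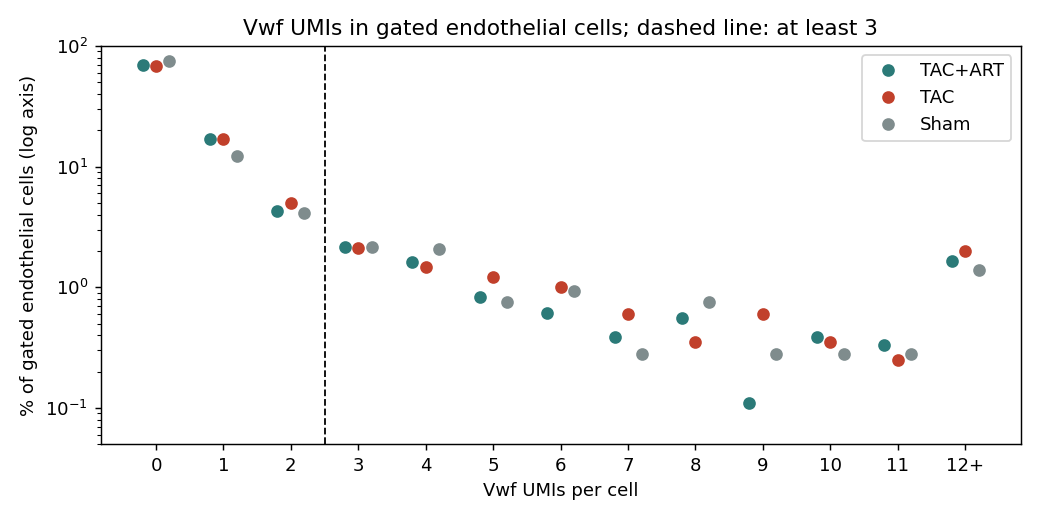
Share of gated endothelial cells (%, log axis) at each number of Vwf UMIs per cell, in TAC+ART, TAC and Sham; points are 1 library each and the dashed line marks the threshold of 3 UMIs. Cells without a Vwf UMI made up 70.1%, 68.1% and 74.4%, and the share declines through the threshold without a gap.

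The Vwf-rich cells were 8.64% [7.39 to 10.0] of the gated cells in TAC+ART, 9.97% [8.69 to 11.4] in TAC and 9.16% [7.50 to 11.05] in Sham (exact binomial intervals). The log2 ratio of shares was -0.21 [-0.49 to 0.08] for TAC+ART over TAC and 0.12 [-0.21 to 0.45] for TAC over Sham, and both intervals include 0. When each gated cell was thinned to 2000 UMIs, the share with at least 3 Vwf UMIs was 4.58% in TAC+ART (78 of 1703 cells), 5.61% in TAC (109 of 1943) and 6.01% in Sham (59 of 982). Thinning left out 104, 102 and 116 shallower cells. TAC had the highest share before thinning and Sham the highest after it, so no order of the libraries is read from the shares.

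The venous label was checked against Nr2f2, Vcam1 and Selp, which the selection rule did not use but which were chosen as markers with earlier results of these data known. Nr2f2 (chromosome 7, 70351944 to 70366735, minus strand) was at 477 CPM in Vwf-rich cells of TAC+ART, 465 CPM in TAC and 449 CPM in Sham, against 113, 107 and 155 CPM in other endothelial cells. It was lower still in capillary cells, gated as Vwf-free cells with at least 2 UMIs of Btnl9 and Ablim3, at 58.5, 56.3 and 65.7 CPM, and in arterial cells at 31.3, 36.3 and 23.2 CPM. Endocardial cells (338, 254 and 340 CPM) and lymphatic cells (734, 566 and 705 CPM) also carried it. Nr2f2 thus sets the Vwf-rich cells apart from capillary and arterial endothelium, less so from endocardium, and not from lymphatic endothelium. Vcam1, the adhesion receptor for integrin-bearing leukocytes (chromosome 3, 116109949 to 116129688, minus strand), was at 301, 791 and 246 CPM in Vwf-rich cells, against 96.9, 188 and 72.4 CPM in other endothelial cells. Endocardial cells had more Vcam1 in each library (452, 1182 and 387 CPM), and arterial cells of Sham (263 CPM) had about as much as Vwf-rich cells. Selp (chromosome 1, 164115264 to 164150026, plus strand) was at 19.7, 156 and 17.1 CPM in Vwf-rich cells, against 1.34, 8.61 and 1.64 CPM in other endothelial cells. Arterial cells, at 17.6, 11.2 and 23.2 CPM, had about as much Selp as Vwf-rich cells in TAC+ART and Sham. Ackr1, the chemokine-binding receptor of venules, gave 1, 14 and 0 UMIs in all Vwf-rich cells of TAC+ART, TAC and Sham. The venous-like label is thus carried by Nr2f2 in all 3 libraries, by Selp mostly in TAC, and hardly by Ackr1. Nr2f2, Vcam1 and Selp summed to 797, 1412 and 711 CPM in Vwf-rich cells and to 796, 1470 and 733 CPM in endocardial cells. Endocardial cells also had 1493.5, 1295.4 and 1153.8 CPM of Vwf. Neither this sum nor the level of Vwf sets the Vwf-rich cells apart from endocardial cells.

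**Figure D2:**
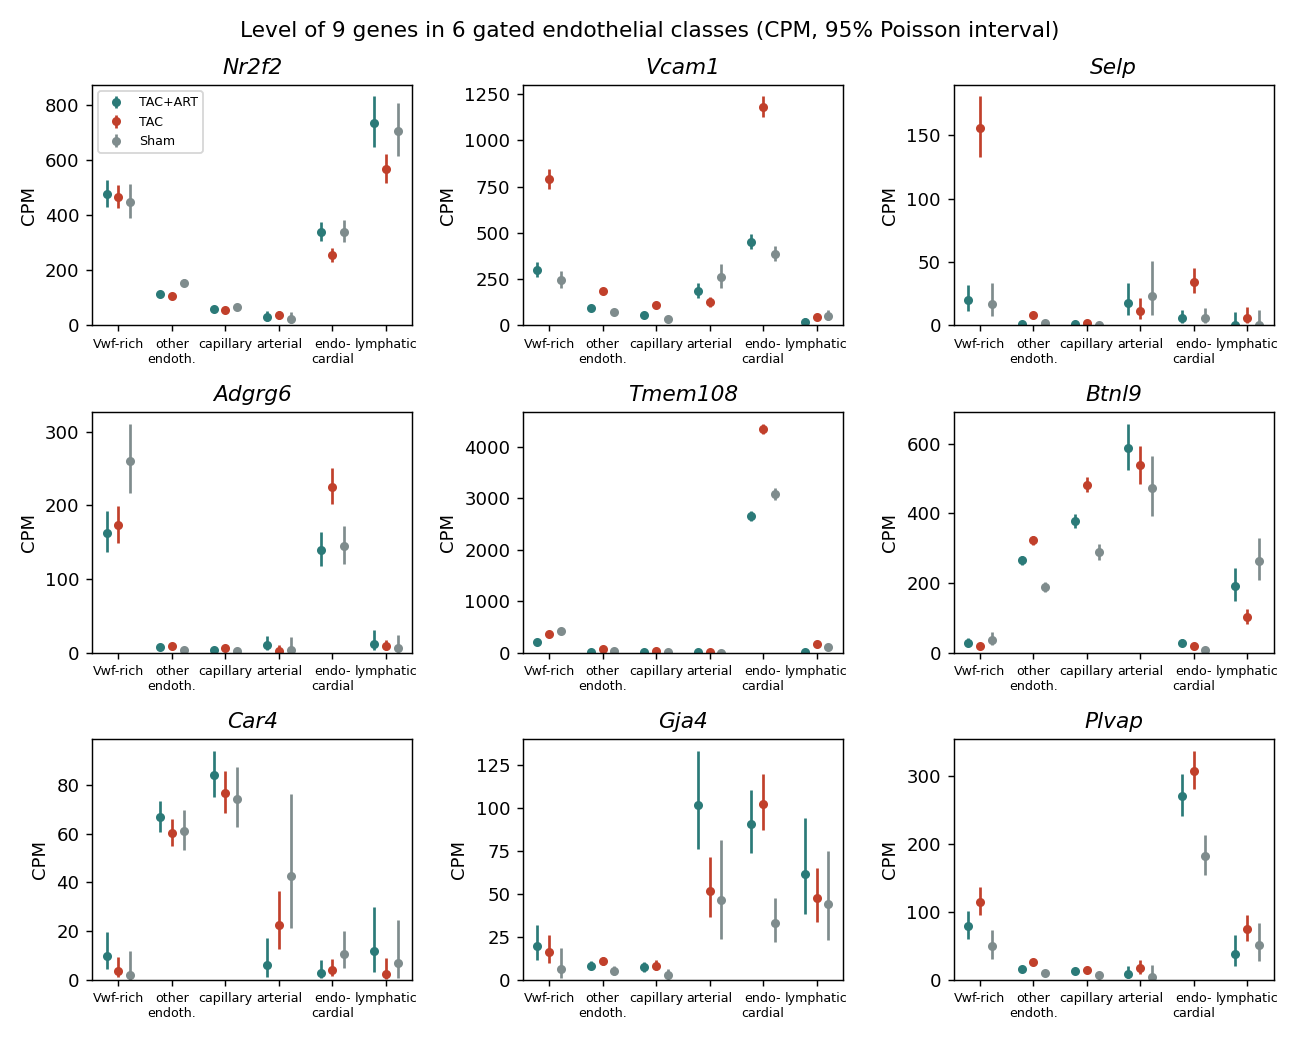
Levels (CPM, points with 95% Poisson intervals) of 9 genes in 6 gated endothelial classes (axis left to right), in TAC+ART, TAC and Sham. Nr2f2 is near 450 to 480 CPM in Vwf-rich cells and at or below 155 CPM in other endothelial cells, while endocardial cells stand highest for Tmem108.

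Against other endothelial cells, 187 of 9305 genes with at least 50 UMIs were at least 2-fold higher in Vwf-rich cells in all 3 libraries (2.01%), and 160 were at least 2-fold lower (1.72%). These counts describe cells chosen by their Vwf and carry no test. The gene lists that follow were chosen with earlier results of these data known. Of a list of 20 venous genes 15 were measured, 9 were at least 2-fold higher in all 3 libraries, and the median log2 ratio was 1.45 in TAC+ART, 1.36 in TAC and 1.55 in Sham, where the median over all genes was -0.01, 0.00 and -0.02. Of 18 capillary genes measured, 6 were at least 2-fold lower in all 3 libraries and 15 were lower, with medians of -0.89, -0.92 and -0.78. Of 12 arterial genes measured, 2 were at least 2-fold higher and 3 at least 2-fold lower. Of 10 endocardial genes measured, 5 were at least 2-fold higher in all 3 libraries, with medians of 1.21, 0.78 and 1.34. Pkhd1l1, the highest of the venous list, was higher still in endocardial cells in each library, so the venous median is not particular to veins.

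Among the 20 genes furthest above other endothelium, Adgrg6, an adhesion receptor coupled to G proteins, was at 163, 173 and 261 CPM in Vwf-rich cells of TAC+ART, TAC and Sham, against 7.88, 9.25 and 3.82 CPM. Endocardial cells had 139, 225 and 145 CPM of it, more than Vwf-rich cells in TAC. Cmah, which makes the sialic acid Neu5Gc, was at 266, 383 and 346 CPM, against 30.8, 40.2 and 41.3 CPM. Ctnnal1, an alpha-catenin relative, was at 81.3, 104 and 141 CPM, against 8.03, 9.25 and 15.3 CPM, and lymphatic cells had more in each library, at 226, 247 and 273 CPM. The rest of the 20 included Nrxn3, Kank4, Ankdd1b, Thsd4, Plekha7, Stc1, Gria3, Megf6, Pkhd1l1, Wnt9b and Nckap5. Of these, Nrxn3, Thsd4, Megf6 and Pkhd1l1 were higher in endocardial and in lymphatic cells than in Vwf-rich cells in each library. Pkhd1l1 was at 774, 750 and 672 CPM in endocardial cells, against 212, 78.8 and 135 CPM. Of 13 Weibel-Palade genes measured, 2 were at least 2-fold higher in all 3 libraries, 4 were higher and 2 lower in all 3, and the medians were 0.05, -0.12 and 0.21. The 2 were Rab27a and Myrip. Rab27a, the GTPase on Weibel-Palade bodies, was at 277, 177 and 276 CPM, against 64.5, 49.7 and 65.3 CPM. Myrip, its partner, which ties the granules to actin, was at 453, 331 and 498 CPM, against 82.2, 57.7 and 97.8 CPM. Calcrl, the receptor for adrenomedullin and CGRP, was at 2673, 2296 and 2433 CPM, against 743, 649 and 713 CPM. Eln, which encodes elastin, was at 1275, 1219 and 1057 CPM, against 206, 218 and 254 CPM, and arterial cells had more in each library, at 1874, 1349 and 2059 CPM. Il33, an alarmin kept in the nucleus of endothelium, was at 143, 79.7 and 135 CPM, against 17.7, 15.5 and 22.1 CPM. Among the 10 genes furthest below, Car4, the carbonic anhydrase on the capillary surface, was at 9.85, 3.62 and 2.14 CPM, against 66.8, 60.1 and 61.2 CPM. Btnl9, a further capillary marker, was at 28.3, 18.1 and 36.3 CPM, against 265, 323 and 188 CPM. Fabp4, a fatty acid carrier of microvessels, differed little, at 2449, 2234 and 1619 CPM, against 2534, 2554 and 2004 CPM.

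The selected cells were not uniform. In cells with 10 or more Vwf UMIs (43, 52 and 21 cells), Adgrg6 was at 340 CPM in TAC+ART, 440 CPM in TAC and 417 CPM in Sham, and in cells with 3 or 4 Vwf UMIs (68, 71 and 45 cells) at 20.6, 26.4 and 118.5 CPM. Selp followed the same order, at 46.2, 214 and 35.5 CPM in the cells with most Vwf and at 5.89, 108 and 5.15 CPM in those with least. In TAC+ART and Sham its levels rest on 16 and 8 UMIs over all Vwf-rich cells, so the order there is weakly based. Ctnnal1 was at 139, 182 and 177 CPM in the cells with most Vwf, and at 44.2, 68.8 and 82.4 CPM in those with least. Nr2f2 differed less, at 458, 553 and 488 CPM against 392, 402 and 448 CPM, and Icam1 in TAC hardly, at 534 CPM against 550 CPM. Fabp4 ran the other way, at 1896, 1499 and 878 CPM in the cells with most Vwf, against 2614, 2615 and 2004 CPM in those with least. Btnl9, also a capillary marker, ran that way only in TAC+ART, at 16.8 CPM against 41.3 CPM. In TAC it was at 12.6 CPM against 7.93 CPM, and in Sham at 124 CPM against 5.15 CPM. These Btnl9 levels rest on 23, 20 and 17 UMIs over all Vwf-rich cells of TAC+ART, TAC and Sham. Not every gene that stood above other endothelium followed Adgrg6 in each library. In TAC+ART, Nckap5 was at 349 CPM in the cells with most Vwf, against 660 CPM in those with least. Tmem108 was at 185 CPM there, against 227 CPM. In TAC and Sham both were higher in the cells with most Vwf. Nckap5 in Sham was at 1161 CPM against 118.5 CPM, and Tmem108 in TAC at 600 CPM against 167 CPM. Of the Nckap5 UMIs, 1 cell held 138 of 400 in TAC+ART and 1 cell 91 of 187 in Sham. In TAC, Ankdd1b was at 53.4 CPM against 50.2 CPM.

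Endocardial RNA was present in some of them. Tmem108, a gene of the endocardium in these libraries, was at 214, 355 and 419 CPM in Vwf-rich cells, against 21.1, 62.9 and 25.7 CPM in other endothelial cells. At least 3 UMIs of Tmem108, Cdh11 and Nrg1 together were found in 24 Vwf-rich cells of TAC+ART (15.4%), 36 of TAC (18.2%) and 15 of Sham (15.3%). The 8 endocardial markers outside the rule summed to 845, 1060 and 1036 CPM in Vwf-rich cells, against 239, 334 and 200 CPM in other endothelial cells and 6795, 12638 and 6648 CPM in endocardial cells. Hapln1 was at 0 in Vwf-rich cells of TAC+ART. Without the cells holding those endocardial UMIs, left out after the data were seen, the ratio of Selp between TAC and Sham given below was 2.91 and that of Icam1 2.55. Markers of other cells were also present, with none of 8 fibroblast and none of 10 cardiomyocyte markers at 0. Fibroblast markers summed to 1875, 1438 and 703 CPM in Vwf-rich cells and to 2214, 1767 and 818 CPM in other endothelial cells. Cardiomyocyte markers summed to 6569, 6256 and 5168 CPM, against 7742, 7808 and 6864 CPM. The 8 macrophage markers summed to 308, 277 and 141 CPM, against 386, 395 and 295 CPM, none of them at 0, and of 6 lymphocyte markers 2 were at 0 in TAC+ART, none in TAC and 4 in Sham. Fibroblast markers were thus higher in TAC+ART and TAC than in Sham in both sets of cells, and their part in the results that follow was not tested.

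The comparison of TAC with Sham sets these cells in the pool of loaded hearts against those in the sham-operated pool. NF-kB target genes were higher in TAC, Selp, Sele, Icam1 and Vcam1 among them. Of a list of 24 such genes 22 had at least 20 UMIs, all 22 were higher and 16 were at least 2-fold higher, with a median log2 ratio of 2.08 (2.08 also with Tnfaip3, at 0 UMIs in Sham, set to its bound). Over all 9121 genes with at least 20 UMIs the median was -0.03, 693 were at least 2-fold higher (7.6%) and 412 at least 2-fold lower (4.52%). With at least 50 UMIs, 347 of 5771 genes were at least 2-fold higher (6.01%) and 136 at least 2-fold lower (2.36%).

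In TAC+ART over TAC, which asks how artesunate-treated hearts differ from vehicle-treated ones under the same load, the same 22 genes were all lower and 16 were at least 2-fold lower, with a median log2 ratio of -1.81. Over all 9784 genes the median was -0.02, 361 were at least 2-fold lower (3.69%) and 326 at least 2-fold higher (3.33%). With at least 50 UMIs, 126 of 6475 genes were at least 2-fold lower (1.95%) and 111 at least 2-fold higher (1.71%). The 2 comparisons share the TAC library, so a chance high value there moves both in opposite directions. In TAC+ART over Sham, which does not contain it, 15 of the NF-kB genes had 20 UMIs, with a median of 0.01, 9 higher, 6 lower and 0 past 2-fold. Over all 8414 genes in that comparison 415 were at least 2-fold higher (4.93%) and 248 at least 2-fold lower (2.95%), and with at least 50 UMIs 128 of 4941 were higher (2.59%) and 48 lower (0.971%).

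Selp, which encodes P-selectin for leukocyte rolling, gave 16 UMIs in TAC+ART, 172 in TAC and 8 in Sham. Its log2 ratio was 3.10 [2.18 to 4.42] for TAC over Sham, against -2.94 [-3.82 to -2.24] for TAC+ART over TAC. Sele (chromosome 1, 164048234 to 164057677, plus strand), a selectin known from activated endothelium, gave 2 UMIs in TAC+ART, 78 in TAC and 1 in Sham. TAC stands alone for both selectins. The log2 ratios of Sele, which rest on 1 and 2 UMIs, were 4.47 [2.53 to 10.37] for TAC over Sham, against -4.53 [-7.91 to -2.94] for TAC+ART over TAC. Icam1 (chromosome 9, 21015985 to 21028817, plus strand), the ligand of leukocyte integrins, was at 62.8 CPM in TAC+ART, 533 CPM in TAC and 89.7 CPM in Sham. Its log2 ratios were 2.56 [2.12 to 3.06] for TAC over Sham, against -3.07 [-3.53 to -2.67] for TAC+ART over TAC. The intervals of its level overlapped between TAC+ART (46.8 to 82.6 CPM) and Sham (64.7 to 121 CPM). For Vcam1 the log2 ratios were 1.68 [1.41 to 1.98] for TAC over Sham, against -1.39 [-1.61 to -1.19] for TAC+ART over TAC.

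Of the chemoattractants and growth factors, Cxcl1, which draws neutrophils (chromosome 5, 90891241 to 90893115, plus strand), gave 1 UMI in TAC+ART, 113 in TAC and 3 in Sham. Its log2 ratio was 3.78 [2.41 to 6.30] for TAC over Sham, against -5.80 [-11.69 to -3.87] for TAC+ART over TAC. Csf1, the growth factor of macrophages, was at 103, 483 and 103 CPM, with ratios of 2.22 [1.81 to 2.69] for TAC over Sham, against -2.22 [-2.57 to -1.89] for TAC+ART over TAC. TAC+ART and Sham were about level for Csf1. Cxcl2 was at 0 in Sham and at least 3.53-fold higher in TAC, against a floor of 3 UMIs per library. Il33 stood apart from these, with a ratio of -0.76 [-1.24 to -0.27] for TAC over Sham, against 0.84 [0.43 to 1.26] for TAC+ART over TAC. Of 12 chemokines and cytokines measured of 18 listed, 4 were at least 2-fold higher in TAC over Sham (median 0.34) and 4 at least 2-fold lower in TAC+ART over TAC (median -0.27).

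The inhibitors and subunits of the pathway showed the same order. Tnfaip3 (A20, which ends NF-kB signalling; chromosome 10, 19000910 to 19015657, minus strand) gave 9, 71 and 0 UMIs, so that TAC was at least 10.0-fold higher than Sham. Bcl3, a nuclear partner of NF-kB (chromosome 7, 19808462 to 19822770, minus strand), was at 13.5, 110 and 4.27 CPM, the last of these resting on 2 UMIs, with a ratio of 4.38 [2.81 to 7.75] for TAC over Sham. Nfkbia, the inhibitor that holds NF-kB in the cytoplasm, was at 139, 354 and 109 CPM, with a ratio of 1.69 [1.28 to 2.15] for TAC over Sham. Relb, an NF-kB subunit, was at 24.6, 143 and 23.5 CPM, with a ratio of 2.55 [1.73 to 3.64] for TAC over Sham. The least difference was in Traf1, at 28.3, 29.0 and 27.8 CPM, and Nfkb1, a core subunit, was at 203, 281 and 205 CPM.

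**Figure D3:**
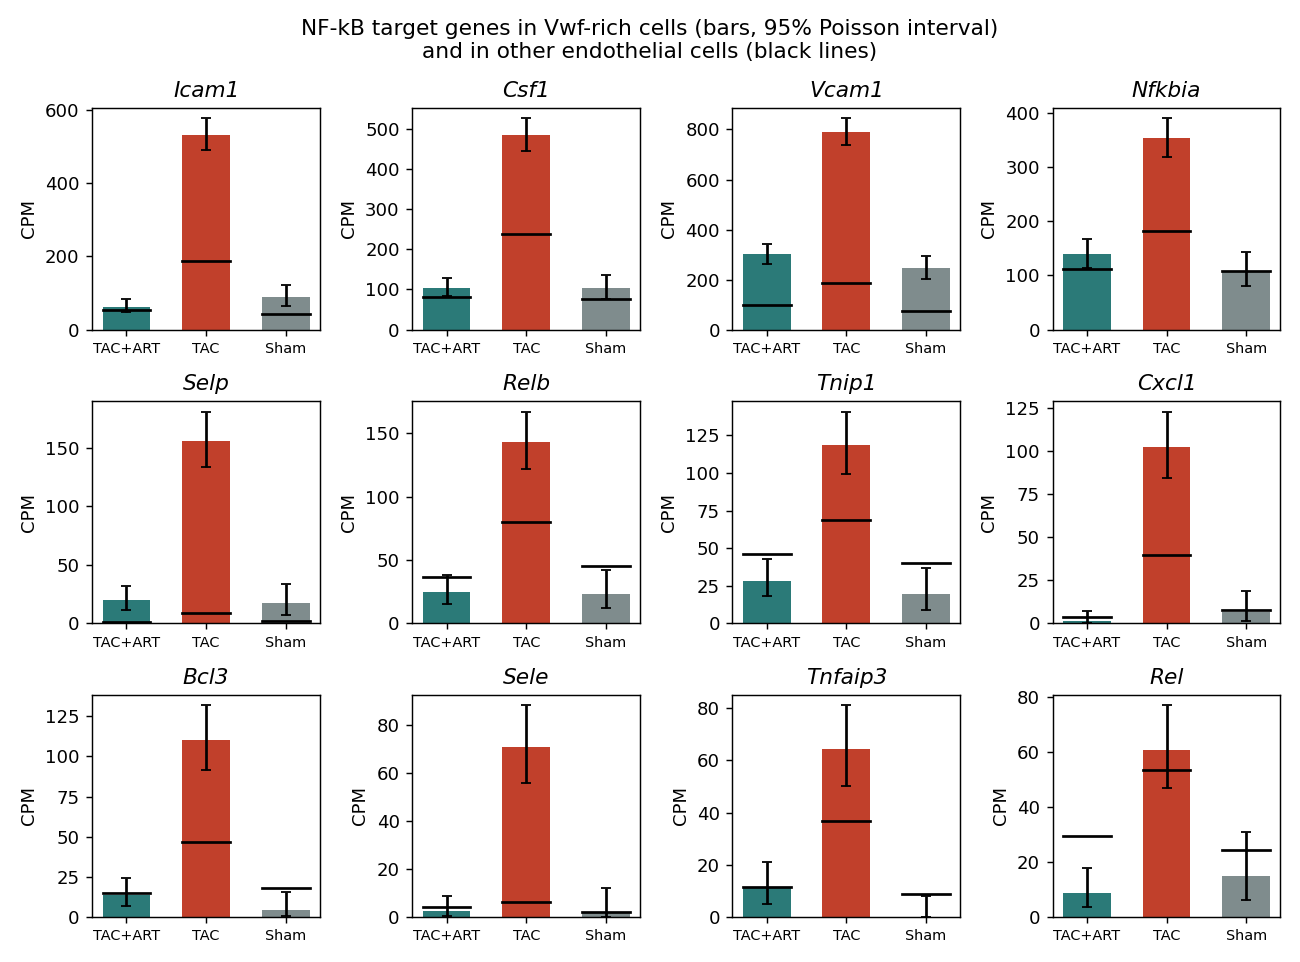
Levels of 12 NF-kB target genes in Vwf-rich cells (bars, CPM, with 95% Poisson intervals) and in other endothelial cells (black lines), in TAC+ART, TAC and Sham. The TAC bar is highest for each of the 12, and in TAC it lies above the black line for all of them.

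The start regions of genes that stood out in TAC are shown because these genes share an upstream factor by textbook knowledge. Windows of 250 bases before to 50 after the start were read from RefSeq (GRCm38.p6), and the 10-base NF-kB consensus was searched on both strands. It occurred in 1480 of 32851 windows (4.51%) and in 12 of the 18 windows found for the NF-kB list (66.7%). That list holds known NF-kB targets, so a high share there was likely beforehand and says nothing about these cells. Of the 10 windows found for the 12 genes named as highest in TAC over Sham, 3 held the consensus. In the windows below, 5' to 3' along the gene's strand, capitals mark the match. That of Cxcl1 (chr5:90890995-90891294, plus strand) holds a pair of overlapping matches on opposite strands, from 71 to 61 bases before the start. That of Csf1 (chr3:107760420-107760719, minus strand) holds 1, from 154 to 145 bases before it. That of Bcl3 (chr7:19822706-19823005, minus strand) holds 1 just after the start. That of Sele (chr1:164047984-164048283, plus strand) holds none, and neither do those of Selp and Icam1. A match is a description of letters and not a binding site. Only exact matches to the consensus were searched for, so a window without a match is not shown to lack a binding site.
Cxcl1: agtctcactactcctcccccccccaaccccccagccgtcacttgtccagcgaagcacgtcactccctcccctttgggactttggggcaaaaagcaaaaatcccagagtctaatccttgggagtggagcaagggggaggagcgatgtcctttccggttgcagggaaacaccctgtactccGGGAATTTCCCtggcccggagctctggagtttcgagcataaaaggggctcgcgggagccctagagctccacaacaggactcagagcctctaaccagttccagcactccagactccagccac
Csf1: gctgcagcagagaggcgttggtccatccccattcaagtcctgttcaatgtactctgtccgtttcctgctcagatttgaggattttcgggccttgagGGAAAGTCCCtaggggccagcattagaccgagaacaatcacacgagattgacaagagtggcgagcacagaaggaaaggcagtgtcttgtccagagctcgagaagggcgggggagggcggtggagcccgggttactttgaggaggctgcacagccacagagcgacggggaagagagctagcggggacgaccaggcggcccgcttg
Bcl3: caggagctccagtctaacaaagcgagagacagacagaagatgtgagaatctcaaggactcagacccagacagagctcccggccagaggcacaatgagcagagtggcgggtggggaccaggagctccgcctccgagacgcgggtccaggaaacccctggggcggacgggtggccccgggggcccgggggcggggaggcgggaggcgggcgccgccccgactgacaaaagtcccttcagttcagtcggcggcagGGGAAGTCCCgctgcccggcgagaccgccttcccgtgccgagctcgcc
Sele: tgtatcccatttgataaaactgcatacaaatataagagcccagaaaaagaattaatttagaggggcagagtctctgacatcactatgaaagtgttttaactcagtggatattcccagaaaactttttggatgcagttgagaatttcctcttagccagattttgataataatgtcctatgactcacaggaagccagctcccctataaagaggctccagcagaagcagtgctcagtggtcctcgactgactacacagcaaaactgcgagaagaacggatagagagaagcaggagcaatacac

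Seen cell by cell, larger shares of the Vwf-rich cells had a UMI of these genes in TAC. Selp was found in 10 of 156 Vwf-rich cells in TAC+ART (6.41%), 55 of 198 in TAC (27.8%) and 5 of 98 in Sham (5.10%). Thinned to 2000 UMIs per cell, the shares were 3.87%, 15.1% and 1.04%, with 1, 6 and 2 shallower cells left out. Fibroblasts, which should lack Selp, had a thinned share of 0.0491%, 0.251% and 0.0905% and median depths of 5086.5, 5837.5 and 4659 UMIs. The Selp share of the Vwf-rich cells lay above that background in TAC+ART and TAC, and in Sham it rested on 1 cell. Icam1 was found in 25.0%, 61.6% and 25.5% of Vwf-rich cells, and in 13.5%, 43.2% and 15.6% after thinning. Fibroblasts had thinned Icam1 shares of 6.48%, 10.3% and 4.16%. Vcam1 was found in 63.5%, 77.8% and 54.1% of Vwf-rich cells, and after thinning in 37.4%, 55.7% and 38.5%. Nr2f2 was found in 84.0%, 81.8% and 73.5%, and after thinning in 60.0%, 58.3% and 53.1%, against 10.4%, 8.32% and 10.4% in fibroblasts.

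Within the TAC library, Icam1 and Vcam1 were found in larger shares of the cells with Selp than of those without. Of its 55 Vwf-rich cells with Selp, 46 also had Icam1 (83.6%), against 76 of the 143 without Selp (53.1%). Vcam1 was found in 49 of the 55 (89.1%) and in 105 of the 143 (73.4%), while Nr2f2 was found in 81.8% of both. Of 122 cells with Icam1, 93 had Csf1 (76.2%), against 29 of the 76 without it (38.2%). The other libraries had few cells with Selp and no such order throughout. In TAC+ART, Icam1 was found in 2 of 10 cells with Selp (20%), against 37 of 146 without (25.3%), and Vcam1 in 8 of 10 (80%), against 91 of 146 (62.3%). In Sham, Vcam1 was found in 1 of 5 cells with Selp (20%), against 52 of 93 without (55.9%), and Icam1 in 3 of 5 (60%), against 22 of 93 (23.7%). The cells with Selp were deeper (median 6055 UMIs, against 5259), and so were those with Icam1 (5671, against 4713.5), and the part of depth in these shares was not tested. The Selp of the TAC library was spread over its 55 cells, the top 5 holding 52 of 172 UMIs, and its Icam1 over 122 cells, the top 5 holding 114 of 589 UMIs. Sele lay in 25 cells, the top 5 holding 38 of its 78 UMIs.

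Other endothelial cells differed between libraries in the same direction with smaller ratios, and the difference between the sets of cells was not tested. Over the same 22 NF-kB genes the median log2 ratio of TAC over Sham was 2.08 in Vwf-rich cells and 0.92 in other endothelial cells, and the ratio was larger in Vwf-rich cells for 21 of the 22 (95.5%, where the share over all genes was 51.6%). For TAC+ART over TAC the medians were -1.81 and -0.84, and the ratio was lower in Vwf-rich cells for 20 of the 22 (over all genes, 4869 of 9781). For Sele the ratio of TAC over Sham was 4.47 in Vwf-rich cells and 1.39 in other endothelial cells, which held 6.04 CPM of it in TAC. For Relb the ratios were 2.55 and 0.80, for Bcl3 4.38 and 1.34, and for Icam1 2.56 and 2.14. Among the other gated classes, endocardial cells came nearest, with medians of 1.43 for TAC over Sham and -1.46 for TAC+ART over TAC over the NF-kB genes measured there. In the same 2 comparisons capillary cells had 0.62 and -0.66, arterial cells 0.35 and -0.14, lymphatic cells 0.77 and -0.58, fibroblasts 0.69 and -0.71, and macrophages 0.39 and -0.32.

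**Figure D4:**
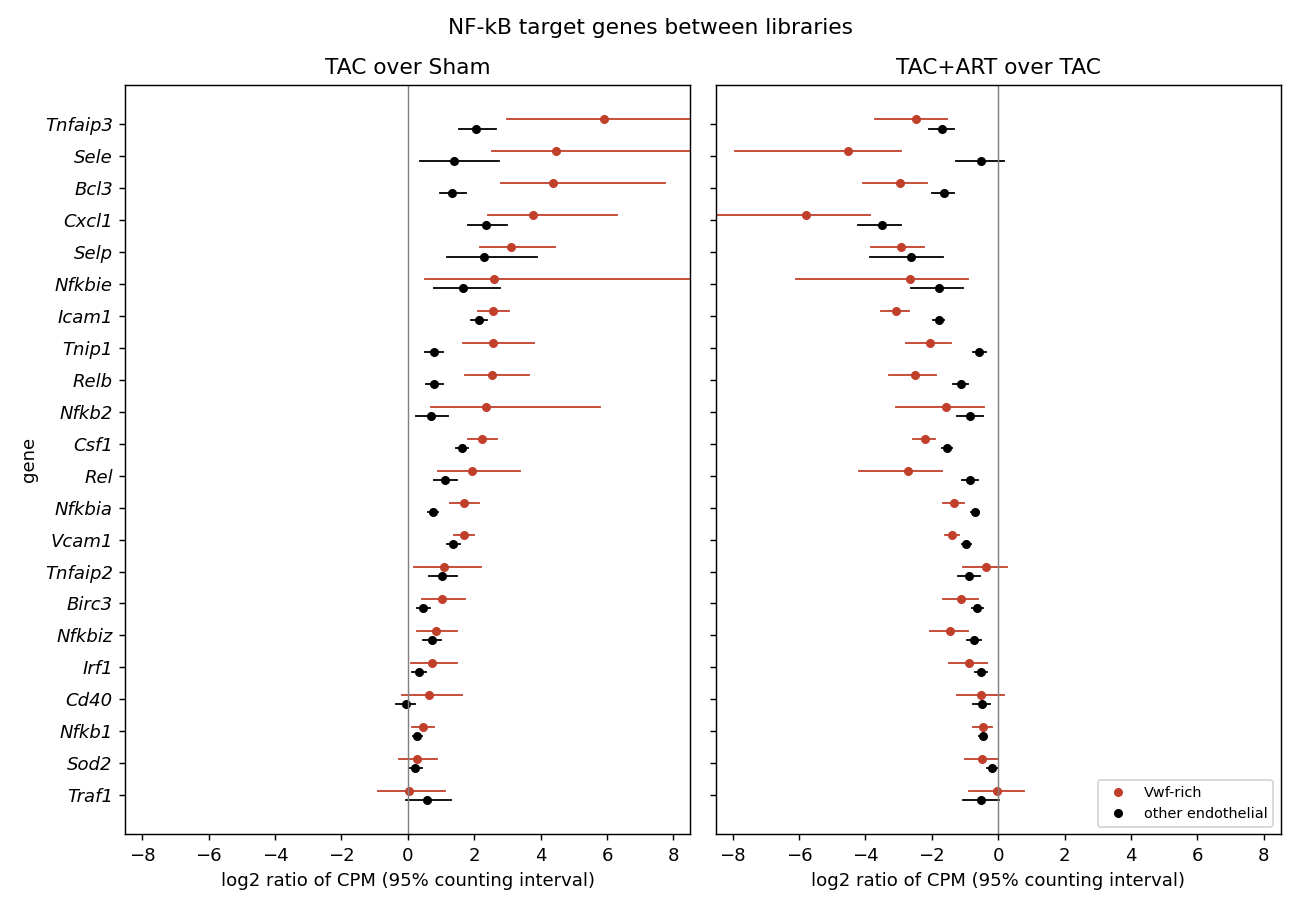
Log2 ratios of CPM for 22 NF-kB target genes, TAC over Sham on the left and TAC+ART over TAC on the right, in Vwf-rich cells (red) and other endothelial cells (black); lines are 95% counting intervals, cut at the axis limits. Each red point is above 0 on the left and below 0 on the right; the point of Tnfaip3 on the left has 0 UMIs in Sham and depends on the added 0.5 counts.

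The receptor complex named by the study was thinly covered. Ly96, the gene of MD2 (chromosome 1, 16688051 to 16709611, plus strand), gave 18, 20 and 13 UMIs in the Vwf-rich cells of TAC+ART, TAC and Sham. Its log2 ratio was 0.30 [-0.71 to 1.29] for TAC+ART over TAC and -0.64 [-1.70 to 0.51] for TAC over Sham, both intervals including 0, so a difference could not be detected at this depth. Tlr4 (chromosome 4, 66827584 to 66930284, plus strand) was at 67.7, 70.6 and 42.7 CPM, with a ratio of -0.06 [-0.58 to 0.46] for TAC+ART over TAC and 0.70 [0.00 to 1.51] for TAC over Sham. Cd14, which hands lipopolysaccharide to the complex, gave 4, 5 and 0 UMIs. Of the 24 genes listed for the pathway 20 were measured, with a median of -0.08 for TAC+ART over TAC, 2 at least 2-fold lower, and a median of 0.21 for TAC over Sham, 3 at least 2-fold higher and 1 at least 2-fold lower. The signalling kinase Irak2 was among them, at 69.0, 260 and 72.6 CPM.

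Genes of the interferon response had the opposite order. Of 26 listed, 20 were measured for TAC over Sham, 15 were lower and 6 at least 2-fold lower, with a median log2 ratio of -0.62. For TAC+ART over TAC 24 were measured, 19 were higher and 8 at least 2-fold higher, with a median of 0.67. Other endothelial cells had medians of -0.52 and 0.47. Iigp1, a GTPase of cell-autonomous defence, was at 340 CPM in TAC+ART, 67.9 CPM in TAC and 199 CPM in Sham, with ratios of 2.32 [1.95 to 2.71] for TAC+ART over TAC and -1.55 [-2.01 to -1.09] for TAC over Sham. The guanylate-binding protein Gbp4 was at 122, 53.4 and 126 CPM, and Gbp5 at 67.7, 30.8 and 66.2 CPM. TAC was lowest for all 3. Irf1, which is on the NF-kB list too, was at 46.8, 86.9 and 51.3 CPM, and Ifitm3, an antiviral membrane protein, at 342, 348 and 164 CPM, so these did not share that order.

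Most antigen presentation genes were higher in TAC+ART than in the other libraries. Of 15 listed genes, 13 were higher and 2 at least 2-fold higher in TAC+ART over TAC, with a median of 0.46. In TAC+ART over Sham 11 of 14 measured were higher and 7 at least 2-fold higher, with a median of 0.97 (0.39 in other endothelial cells). B2m, the light chain of class I molecules, was at 730, 570 and 325 CPM. Cd74, the invariant chain of class II molecules, was at 110, 79.7 and 23.5 CPM, with a ratio of 2.17 [1.31 to 3.28] for TAC+ART over Sham and of 0.95 in other endothelial cells. The class II gene H2-Aa was at 70.2, 47.1 and 17.1 CPM. Class II genes mark macrophages as well, whose markers summed to 308, 277 and 141 CPM in these cells, and their part in this result was not tested.

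Immediate early and heat shock genes were higher in TAC over Sham for 18 of 19 measured, 9 of them at least 2-fold, with a median of 0.99, and lower in TAC+ART over TAC for all 19, 4 of them at least 2-fold, with a median of -0.76. Other endothelial cells had a median of -0.92 in the second comparison. Junb, a subunit of AP-1, was at 22.2, 106 and 25.6 CPM, and Hspa8, a constitutive chaperone, at 168, 258 and 76.9 CPM. Egr1 was at 12.3, 24.4 and 40.6 CPM, highest in Sham. Fos was at 0 in TAC+ART, at least 5.20-fold lower there than in Sham and at least 1.47-fold lower than in TAC. Both bounds use the same floor, so Fos, like Egr1, was higher in Sham than in TAC. It had too few UMIs to be among the 19 measured for TAC over Sham, and its bounds rest on few UMIs.

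**Figure D5:**
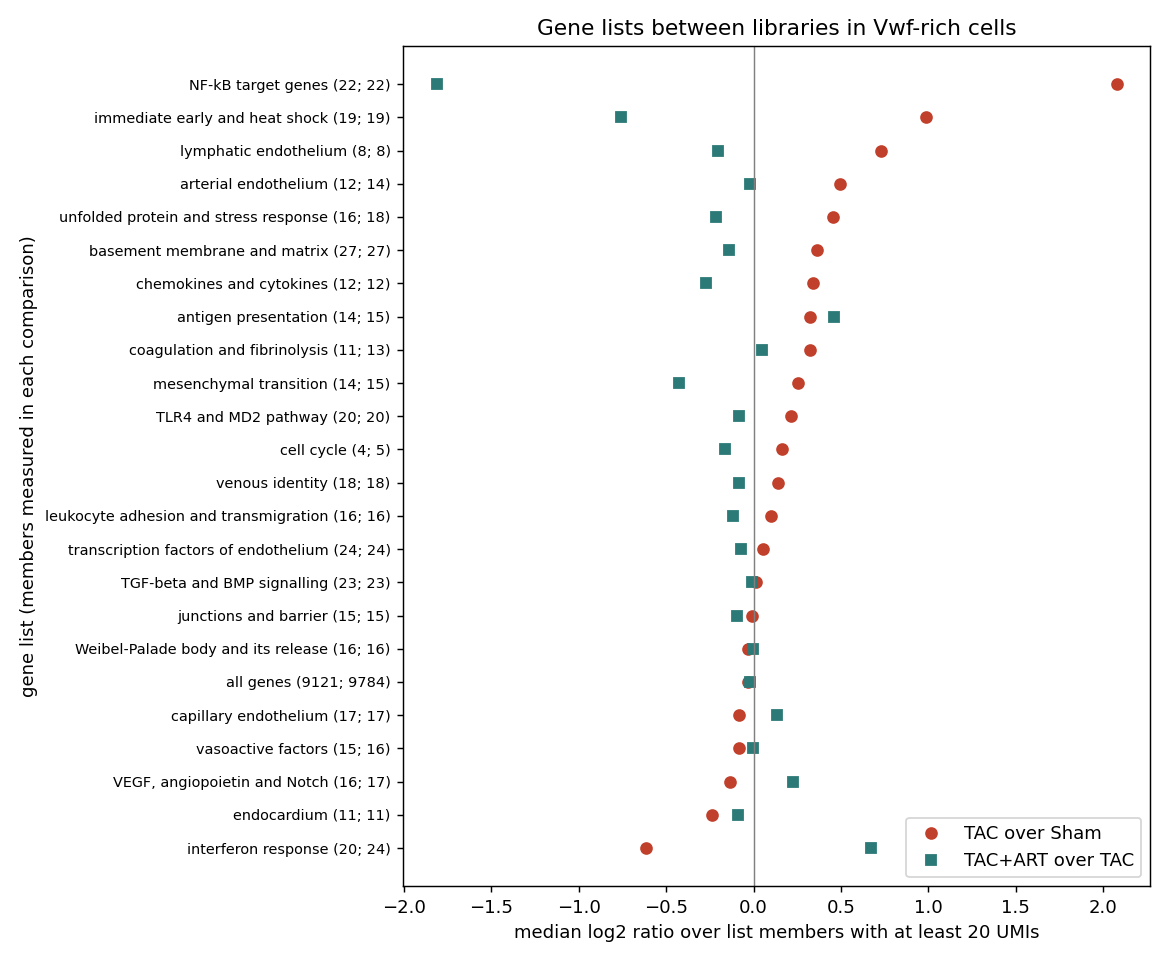
Median log2 ratio over the measured members of each gene list in Vwf-rich cells, for TAC over Sham (circles) and TAC+ART over TAC (squares), with the numbers of members measured in brackets; lists run down the page by the TAC over Sham median. NF-kB target genes stand at the top (2.08 and -1.81) and interferon response genes at the bottom (-0.62 and 0.67), with all genes near 0.

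Genes of the basement membrane were higher in TAC. Of 27 matrix genes measured, 21 were higher in TAC over Sham and 11 at least 2-fold higher (median 0.36). In TAC+ART over TAC 5 were at least 2-fold lower (median -0.14). Other endothelial cells had a higher median for TAC over Sham, 0.93, and one of -0.19 for TAC+ART over TAC. The TAC over Sham ratio was larger in Vwf-rich cells for 10 of the 27 (37.0%, where the share over all genes was 51.6%). Col4a2, a chain of basement membrane collagen, was at 129 CPM in TAC+ART, 460 CPM in TAC and 89.7 CPM in Sham, with ratios of -1.82 for TAC+ART over TAC and 2.34 for TAC over Sham. Col15a1, which anchors basement membrane, was at 64.1, 281 and 36.3 CPM, with ratios of -2.12 for TAC+ART over TAC and 2.91 for TAC over Sham. Col4a1 was at 256, 623 and 179 CPM, below the 534, 1091 and 396 CPM of other endothelial cells. Of 14 mesenchymal genes measured, 6 were at least 2-fold higher in TAC over Sham (median 0.26, and 0.74 in other endothelial cells). The ratio was larger in Vwf-rich cells for 4 of the 14. Postn, a matrix protein of activated fibroblasts, was at 83.8, 236 and 6.41 CPM, and Col1a1 at 73.9, 99.6 and 19.2 CPM. Other endothelial cells had more of both, at 112, 286 and 11.8 CPM of Postn and 99.2, 128 and 24.0 CPM of Col1a1, and fibroblasts of TAC had 959 CPM of Postn. The fibroblast markers given above moved with these genes, and their part was not tested.

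Weibel-Palade genes as a list had medians near that of all genes. Of 16 measured of 18 listed, 3 were at least 2-fold higher in TAC over Sham (median -0.03) and 1 was at least 2-fold lower in TAC+ART over TAC (median -0.00). Rab27a had a ratio of -0.64 [-0.96 to -0.30] for TAC over Sham and Myrip of -0.59 [-0.83 to -0.34], opposite in sign to Selp, the cargo of the same granules. Exoc6, an exocyst subunit, was at 190, 176 and 350 CPM. Snap23, a fusion protein of the plasma membrane, was at 99.8, 144 and 62.0 CPM. Of 11 coagulation genes measured, 2 were at least 2-fold higher in TAC over Sham (median 0.32).

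Venous identity genes as a list had medians of -0.08 for TAC+ART over TAC and 0.14 for TAC over Sham, with 5 of 18 at least 2-fold higher in the second. Nr2f2 differed little between libraries, with a ratio of 0.04 for TAC+ART over TAC and 0.05 [-0.18 to 0.29] for TAC over Sham, and was -0.53 in other endothelial cells for TAC over Sham. Ephb4, the venous ephrin receptor, was at 365, 368 and 389 CPM. Lrg1, a secreted glycoprotein of activated venules, was at 59.1, 206 and 38.5 CPM, with ratios of -1.79 for TAC+ART over TAC and 2.38 for TAC over Sham. Junction genes had medians of -0.09 for TAC+ART over TAC and -0.01 for TAC over Sham, and vasoactive genes of -0.00 and -0.08 in the same comparisons, near those of all genes. Of the adhesion genes 16 of 19 were measured, with medians of -0.12 for TAC+ART over TAC and 0.10 for TAC over Sham. Of these, 5 were at least 2-fold lower in the first comparison and 6 at least 2-fold higher in the second. Examples that differed less were Jam2 at 482, 435 and 598 CPM, Esam at 153, 183 and 184 CPM, and Icam2 at 150, 113 and 98.3 CPM.

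Ranked without lists, the 12 genes highest in TAC over Sham included Tnfaip3, Csf2rb, Nppa, Postn, Sele, Bcl3, Cilp, Cdkn1a, Acta1, Cxcl1 and Ppfia2. Csf2rb, the shared receptor chain for GM-CSF and interleukins, was at 2.46, 56.1 and 0 CPM, at least 8.76-fold higher in TAC than in Sham, and macrophages of TAC had 52.1 CPM. Nppa, the atrial natriuretic peptide of heart muscle, was at 59.1, 301 and 6.41 CPM in Vwf-rich cells, at 312 CPM in capillary cells of TAC and at 684 CPM in cardiomyocytes of TAC. Acta1, a muscle actin, was at 218, 454 and 29.9 CPM, against 1446 CPM in cardiomyocytes of TAC, and Cilp, a fibroblast gene, was at 30.8, 98.7 and 4.27 CPM, against 403 CPM in fibroblasts. Nppa, Postn, Cilp and Acta1 were all higher in capillary cells of TAC, at 312, 274, 112 and 513 CPM, than in Vwf-rich cells of TAC, and the part of RNA from muscle cells and fibroblasts was not tested. Cdkn1a, an inhibitor of the cell cycle, was at 29.6, 51.6 and 2.14 CPM.

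Among the 12 lowest in TAC over Sham were Hlf, Per2 and Cry2, which are known as genes of the circadian clock and are singled out here after their values were seen. Hlf was at 66.5, 27.2 and 179 CPM (ratio -2.71), Per2 at 65.3, 29.0 and 109 CPM (-1.90), and Cry2 at 66.5, 21.7 and 76.9 CPM (-1.81). TAC was lowest of the 3 libraries for each. Nkain2, at 9.85, 12.7 and 98.3 CPM, had the lowest ratio at -2.92, but 1 Sham cell held 37 of its 46 UMIs, and without the 5 cells with most UMIs in each library the ratio was 0.35.

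Of the 12 genes lowest in TAC+ART over TAC, 7 were on the NF-kB list, which holds 24 genes where 4506 were ranked. That list was chosen with earlier results of these data known, so the count is no independent support. The 12 were Cxcl1, Sele, Csf2rb, Neurl3, Icam1, Bcl3, Selp, Noct, Tox, Efr3b, Rel and Relb. Neurl3, a ubiquitin ligase, was at 14.8, 165 and 29.9 CPM. Tox, a nuclear factor best known in lymphocytes, was at 9.85, 74.2 and 94.0 CPM, so that it was low in TAC+ART. Without the Tox UMIs of the 5 cells with most in each library, it was at 2.46, 47.1 and 32.0 CPM. Efr3b was at 22.2, 158 and 49.1 CPM, with a ratio of -2.79, against -0.93 in other endothelial cells. The highest were G630055G22Rik, Kcnj3, Iigp1, Ccdc141, Amy1, Net1, Map2k6, Glis3, Gm29683, Cry2, Zbtb16 and Nckap5. Zbtb16, a repressor that glucocorticoids raise, was at 895, 304 and 399 CPM, with a ratio of 1.56, against 0.97 in other endothelial cells. Nckap5 was at 493, 168 and 400 CPM, but 1 TAC+ART cell held 138 of its 400 UMIs there. In the same way 1 TAC+ART cell held 35 of 65 UMIs of Kcnj3, 33 of 133 of Ccdc141 and 32 of 86 of Glis3. Without the 5 cells with most UMIs in each library the ratio was 1.21 for Nckap5, 1.35 for Kcnj3, 1.35 for Ccdc141 and 0.96 for Glis3. With 0 endocardial and lymphatic UMIs required of each cell, it was 0.71 for Nckap5, 0.50 for Ccdc141 and 0.22 for Gm29683, and for Glis3 it was 0.74 where the endothelial genes had to sum to at least 4 times those of other lineages. Kcnj3 and Ccdc141 are carried by cardiomyocytes, which had 716 and 903 CPM of them, against 80.1 and 164 CPM in Vwf-rich cells of TAC+ART.

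Set directly against Sham, TAC+ART stood highest for Postn (log2 ratio 3.50), Nppa (3.00), Acta1 (2.82), Ankrd1 (2.54), a stretch-responsive muscle gene at 254, 380 and 42.7 CPM, and Pde1c (2.35), a phosphodiesterase. It stood lowest for Nkain2 (-3.25), Tox (-3.18), Dalrd3 (-2.07), Pex3 (-1.98) and Fig4 (-1.81). In Sham, 1 cell held 37 of 46 Nkain2 UMIs and 5 cells held 29 of 44 Tox UMIs. In TAC+ART, 5 cells held 29 of 48 Pde1c UMIs, and cardiomyocytes had 444 CPM of Pde1c. Postn, Nppa, Acta1 and Ankrd1 were thus higher than in Sham and lower than in TAC. In TAC+ART, capillary cells had more Postn, Nppa and Acta1 than Vwf-rich cells. Ankrd1 was about as high there in capillary cells and fibroblasts, and higher in cardiomyocytes. The part of RNA from muscle cells and fibroblasts was not tested. The NF-kB genes had a median log2 ratio of 0.01, over the 15 with at least 20 UMIs. Genes below that minimum, Tnfaip3, Bcl3 and Cxcl1 among them, are not in it.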

How the data were processed

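RNA was counted in 3 libraries of 10x Genomics droplets, 1 library of 3 pooled hearts per group. The values that the authors deposited are raw UMI counts for each barcode, not normalized. Per the submitters' processing notes, Cell Ranger, Seurat and mm10 were used; which versions and which filter on barcodes, the sources used here do not say. The gate was applied to all barcodes. The cells and gene lists were chosen with earlier results of these data known.

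Counts were summed over cells and divided by their total (CPM). Intervals are exact Poisson, conditional binomial and Clopper-Pearson ones at 95%; they cover counting error only. With 1 library per group no test was run. Genes needed 20 UMIs in the 2 sums for lists and 50 for counts of all genes and for ranks. Ranked genes also needed 30 CPM between cells or 50 CPM between libraries; the 20 highest and 10 lowest between cells, and 12 and 12 (5 and 5 for TAC+ART over Sham) between libraries, were named, leaving out mitochondrial, ribosomal, haemoglobin and sex-linked genes, genes of the gate, and genes more than 10-fold below another class (82 in TAC over Sham, 84 in TAC+ART over TAC, 91 in TAC+ART over Sham). Of each list the 2 highest and 2 lowest could be named; further list members were named after their values were seen, and 1 gene that the rule names is not reported here.

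Doublets were scored per library in the manner of Scrublet (2 simulated per barcode, 2000 variable genes, 30 components); the top 0.8% per 1000 barcodes was marked, which took 6, 10 and 0 Vwf-rich cells in TAC+ART, TAC and Sham, and these stayed in. The alternatives changed the gate, the depth range, doublets, the scaling (edgeR 4.0.16 TMM), cell weights, the added counts and the minimum of UMIs. The computation was tested on simulated data. Python 3.11.15, numpy 2.4.6, scipy 1.17.1 and pandas 2.3.3 were used.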

Additional observations from a re-analysis of the deposited data

Results flagged for a closer look

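In 8 cases a gene had opposite signs in Vwf-rich and other endothelial cells, with counting intervals on opposite sides of 0; the difference itself was not tested, since each group is 1 library. Adgrg6, the adhesion receptor that stood out in Vwf-rich cells, had a log2 ratio of -0.59 in Vwf-rich cells and 1.23 in other endothelial cells for TAC over Sham, and of -0.68 and 1.01 for TAC+ART over Sham. Its level in other endothelial cells was 7.88, 9.25 and 3.82 CPM in TAC+ART, TAC and Sham, so these ratios rest on few UMIs. Pkhd1l1, a venous list gene, had -0.78 and 0.65 for TAC over Sham. Timp3, an inhibitor of matrix proteases, had -0.23 and 0.23 for TAC over Sham. Meox2, a homeobox factor of microvascular endothelium, had 0.44 and -0.15 for TAC+ART over TAC. Tapbp, which loads peptides onto class I molecules, had -0.56 and 0.20 for TAC+ART over Sham. Col8a1, a short-chain collagen, had -0.28 and 0.93 for TAC+ART over Sham. Sox7, an endothelial transcription factor, had 0.60 and -0.19 for TAC+ART over Sham.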

How the results depend on the processing

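No paired analysis was possible because each group is 1 library and no test was run. The limits are the 1 library per group, the small sums (468120 UMIs over 98 Vwf-rich cells in Sham) and a selection on Vwf itself. The NF-kB median ran from 1.69 to 2.25 for TAC over Sham and from -2.06 to -1.53 for TAC+ART over TAC over all settings run, and the log2 ratio of shares from -0.10 to 0.37 and from -0.39 to -0.13, so its sign for TAC over Sham was not fixed. Lowering the Vwf threshold to 2 UMIs gave 96 genes lower in Vwf-rich cells in all 3 libraries, not 160, and requiring 0 endocardial and lymphatic UMIs gave 69 genes higher in TAC+ART over TAC, not 111. A minimum of 20 UMIs in place of 50 gave 693 higher and 412 lower for TAC over Sham, and 326 and 361 for TAC+ART over TAC; no minimum gave 2725 and 3185, then 2967 and 3353, and 854 and 295 for Vwf-rich over other cells. Fewer UMIs per gene widen ratios by construction. Of 54 gene ratios, 51 kept their direction in every setting. The exceptions were Nr2f2 in TAC over Sham and in TAC+ART over TAC, both near 0, and Nkain2 in TAC over Sham, at 0.35 without the 5 cells with most of its UMIs. That setting and the one without cells holding endocardial UMIs were chosen after seeing the data.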

Other observations

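Further gene lists were measured in the Vwf-rich cells. Chaperones and the unfolded protein response had a median log2 ratio of -0.22 for TAC+ART over TAC (18 of 21 measured) and 0.45 for TAC over Sham (16 measured, 3 at least 2-fold higher and 1 at least 2-fold lower). Hspa5, the main chaperone of the endoplasmic reticulum, was at 132 CPM in TAC+ART, 181 CPM in TAC and 105 CPM in Sham, while Ddit3, which drives death under that stress, had ratios of 0.15 for TAC+ART over TAC and -0.10 for TAC over Sham. TGF-beta and BMP genes had medians of -0.01 for TAC+ART over TAC and 0.02 for TAC over Sham (23 of 26 measured). Among them Bmp4 had a ratio of -0.97 and Smad7, an inhibitor of the pathway, of -0.71 for TAC over Sham, and Smad7 was at 318, 263 and 429 CPM. Tgfb2 was at 32.0, 13.6 and 12.8 CPM, highest in TAC+ART.

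VEGF, angiopoietin and Notch genes had medians of 0.22 for TAC+ART over TAC and -0.13 for TAC over Sham, and Kdr, the main VEGF receptor, was at 211, 217 and 175 CPM. Endothelial transcription factors had medians of -0.07 for TAC+ART over TAC and 0.06 for TAC over Sham. Meox1, a homeobox factor, was at 17.2, 46.2 and 6.41 CPM, the last resting on 3 UMIs, and Klf2, which answers blood flow, was at 420, 497 and 312 CPM. Arterial genes had medians of -0.02 for TAC+ART over TAC and 0.49 for TAC over Sham, lymphatic genes of -0.20 and 0.73 in these comparisons, capillary genes of 0.13 and -0.08, and endocardial genes of -0.09 and -0.24. All 8 lymphatic genes measured were higher in TAC over Sham, 1 of them (Sox18, which arterial and venous endothelium also expresses) at least 2-fold, at 62.8, 95.1 and 40.6 CPM. Of 17 cell cycle genes 4 were measured for TAC over Sham, and Mki67 gave too few UMIs for a ratio.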
